A study of Mus musculus with 6 samples.

Results

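The GATA1 network examined here is a set of 10 transcription factors and cofactors that set the fate of the common precursors of red cells and megakaryocytes: Gata1, Gata2, Zfpm1, Klf1, Gfi1b, Runx1, Tal1, Lyl1, Nfe2 and Lmo2. Its members were chosen by gene symbol, with earlier results of these data known, as were the gene lists used below. The members are 10 of the 18193 genes that a probe set with 1 symbol names. The platform annotation gave these 10 genes 17 probe sets, of 45037 probe sets other than controls in the table. All 17 passed a filter on dim probe sets that kept 27022 in all, and all 17 were above background on all 6 arrays, where background is the highest signal of the array's 27 Bacillus control probe sets. Signals of different probe sets are not comparable as levels, because each probe set binds with its own efficiency, so a gene is compared below only with itself between arrays, or by how its difference from another gene shifts between them. Sums of signal over a marker list are weighted towards the list's brightest probe sets.

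The arrays measured megakaryocyte progenitors (MkP), the marrow and fetal liver precursors of the platelet-forming megakaryocytes, in wild-type C57BL/6 mice. There were 3 arrays of MkP from the bone marrow of adults aged 12 to 18 weeks and 3 of MkP from fetal liver harvested at E13.5. All 6 samples were sorted by flow cytometry on the same surface phenotype, negative for lineage markers and Sca-1 and positive for c-kit, CD150 and CD41. Per the labels the 3 samples of a tissue were biological replicates, with no number of animals given, so the p-values measure the spread between samples whatever each of them pooled. Organ and age differ together in this design and cannot be told apart, and in sorted bulk RNA a change in the share of cells of one type cannot be told apart from a change in RNA per cell.

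In blood development GATA2 acts early, in stem cells and progenitors, and is replaced at shared sites by GATA1 as cells mature, an exchange known as the GATA switch. GATA1 works with the cofactor FOG1, encoded by Zfpm1, and in a DNA-binding complex in which TAL1 or its relative LYL1 is bridged by LMO2. KLF1 drives the red cell programme, whereas RUNX1 and NF-E2, whose blood-specific subunit is encoded by Nfe2, act in megakaryocytes, and GFI1B is a repressor needed in both lineages.

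The promoters of the 3 genes whose signals separated the tissues most are shown first, because GATA factors and KLF1 are known to act on one another's genes. The 250 bases before the RefSeq start were read from GRCm38.p6, 5′ to 3′ on the strand of the gene. Capitals mark matches, on either strand, to a GATA motif (AGATAA or AGATAG, and with a first T instead of A, TGATAA or TGATAG) or to a CACCC-type motif of Kruppel-like factors (CCNCNCCC). The 2 motifs share no bases in these sequences.
Klf1 (chr8:84901732-84901981, plus strand): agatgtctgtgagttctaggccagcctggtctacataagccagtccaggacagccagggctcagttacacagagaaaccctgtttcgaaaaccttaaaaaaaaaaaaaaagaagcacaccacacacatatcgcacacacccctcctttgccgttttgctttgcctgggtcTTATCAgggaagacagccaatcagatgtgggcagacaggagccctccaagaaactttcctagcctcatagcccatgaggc
Gata1 (chrX:7967911-7968160, minus strand): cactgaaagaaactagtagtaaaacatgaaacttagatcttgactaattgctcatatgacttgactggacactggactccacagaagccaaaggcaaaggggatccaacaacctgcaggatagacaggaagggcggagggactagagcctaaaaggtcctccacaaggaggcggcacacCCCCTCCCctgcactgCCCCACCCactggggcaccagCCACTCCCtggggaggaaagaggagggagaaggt
Gata2, upstream start (chr6:88193641-88193890, plus strand): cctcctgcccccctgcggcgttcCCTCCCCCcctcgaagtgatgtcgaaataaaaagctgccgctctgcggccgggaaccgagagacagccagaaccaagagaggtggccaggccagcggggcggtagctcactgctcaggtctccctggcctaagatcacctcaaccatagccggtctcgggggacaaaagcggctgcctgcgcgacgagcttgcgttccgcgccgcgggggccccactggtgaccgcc
Gata2, downstream start (chr6:88198414-88198663, plus strand): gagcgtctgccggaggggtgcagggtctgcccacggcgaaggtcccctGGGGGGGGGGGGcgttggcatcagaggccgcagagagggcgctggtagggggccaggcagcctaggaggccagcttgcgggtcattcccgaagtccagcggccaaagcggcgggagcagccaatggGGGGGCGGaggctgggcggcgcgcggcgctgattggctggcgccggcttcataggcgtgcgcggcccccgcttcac
The window of Klf1 held 1 GATA match, which lay 75 to 80 bases before the start and read on the opposite strand. This window had no match to CCNCNCCC, although it holds the shorter letters CACCC. That of Gata1 held 3 CACCC matches, the farthest starting 71 bases before the start, and no GATA match. The upstream and downstream starts of Gata2 had 1 and 6 overlapping or separate CACCC matches, 5 of the latter within 1 run of G, and no GATA match. The table held 11 start sites for 8 of the 10 genes, without Nfe2 and Lmo2. Of these 11 windows, 3 had a GATA match (Klf1, Gfi1b and the upstream start of Tal1) and 9 a CACCC match, against 26.5% and 45.9% of 32851 mouse promoter windows of the same length. An E-box motif (CANNTG), which is not marked above, was also searched. It matched in 5 of the 11 windows, against 66.2% of all windows. The matches are letters in a window, and no binding was measured.

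The arrays were scaled alike by trimmed mean signal, which was 500 on each, and 59.7% to 68.8% of probe sets were above background. Their median signals still differed by tissue, at 76.6, 74.1 and 80.2 in marrow and 64.2, 65.5 and 62.8 in fetal liver. Arrays of a tissue correlated at 0.874 to 0.898 in marrow and 0.922 to 0.954 in fetal liver, and arrays of different tissues at no more than 0.873. The number of arrays, 3 in each tissue, limits the precision of every value below.

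Klf1 was the member whose signal rose in fetal liver, and the other 9 genes did not pass the threshold in either direction. Of the 17 probe sets 1 rose and 0 fell in fetal liver at an adjusted p under 0.05 in limma, where the same fit called 1.78% and 3.28% of the 27022 kept probe sets, or 5.06% in either direction. At an unadjusted p under 0.05 there were 5 of the 17, of which 2, both of Gata2, were higher in marrow, where 20.1% of all kept probe sets passed (8.26% higher in fetal liver and 11.8% in marrow). The members' median log2 fold change was -0.03, and the median size of their change, 0.22, was smaller than the 0.45 of all kept probe sets. Their median SD of log2 signal was smaller too, at 0.344 in marrow and 0.301 in fetal liver against 0.488 and 0.369. The sizes of change were not compared at like signal or spread, and a gene such as Runx1 counts by each of its probe sets. A positive log2 fold change means a higher signal in fetal liver, on the scale log2(signal + 2.87).

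**Figure D1:**
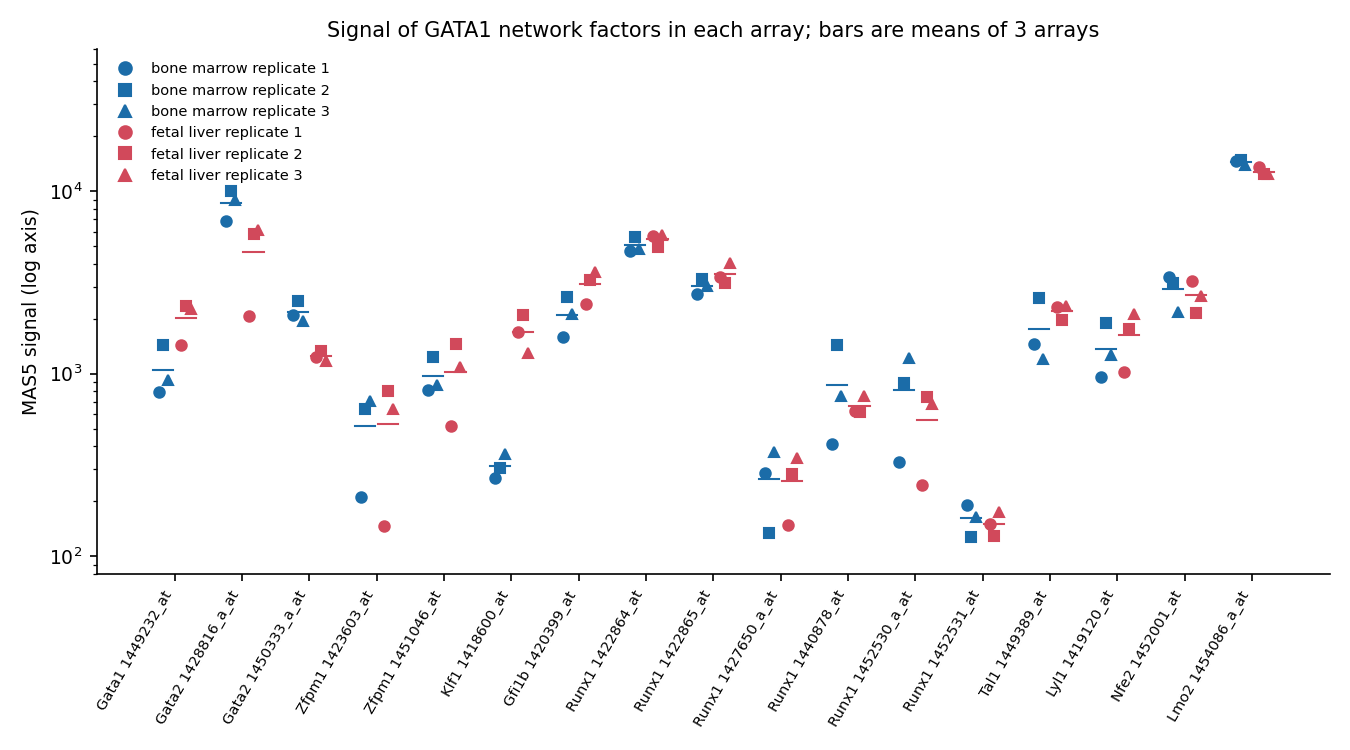
MAS5 signal on a log axis of each of the 17 probe sets of the 10 genes in each of the 3 bone marrow arrays (blue) and 3 fetal liver arrays (red), with bars at the means and a marker shape for each replicate number. Klf1 separates the tissues widely, Gata1 lies higher and both Gata2 probe sets lie lower in fetal liver without overlap, and most other probe sets overlap.

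Klf1, the erythroid Kruppel-like factor, had signals of 268, 304 and 362 in the bone marrow arrays and of 1690, 2085 and 1303 in the fetal liver arrays. The lowest fetal liver signal was far above the highest marrow signal. Klf1 rose by 2.42 ± 0.30 on the log2 scale (SE; 95% interval 1.76 to 3.07), a fold of 5.33 (limma adjusted p = 0.00127). By p-value it ranked 139 of the 27022 kept probe sets. Klf1 passed the threshold under all 21 alternatives tried, with changes of 2.25 to 2.67 and adjusted p of 6.06e-04 to 0.0270.

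The levels of red cell markers are given beside those of Klf1. Of 9 erythroid markers listed, 6 were named by a probe set with 1 symbol (Hba-a1, Slc4a1, Alas2, Epor, Rhag and Epb42). Their summed signals were 2187, 4186 and 1875 in marrow and 3004, 11550 and 3766 in fetal liver. Hba-a1, an adult alpha globin, was read from 1 probe set, which stayed at background in every array. Probe sets with several symbols were not read, so this value does not show that adult globin RNA was absent. On all fetal liver arrays 5 of the 6 markers were above background. The sums overlapped between tissues and were carried by Slc4a1, with 2853 of the 4186 in marrow replicate 2 and 8029 of the 11550 in fetal liver replicate 2. Of the 5 markers that passed the filter 4, all but Epb42, had a positive change. The median of the 5 was 1.11, against 0.006 over all 11625 genes. Of the 5, 1 rose past the threshold, as did 2.26% of all genes. This was Rhag, with signals of 55.3, 8.55 and 34.1 in marrow and of 178, 349 and 181 in fetal liver, without overlap (limma adjusted p = 0.0329). Fetal liver replicate 2 had the highest sum and the highest Klf1 signal, and also the highest sum of 5 hepatocyte markers, 3644 against 823 and 605 in the other fetal liver arrays and 223 to 624 in marrow. The part of either cell type in the value of Klf1 was not tested. Without fetal liver replicate 2 the change of Klf1 was 2.25 (adjusted p = 0.0129).

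**Figure D2:**
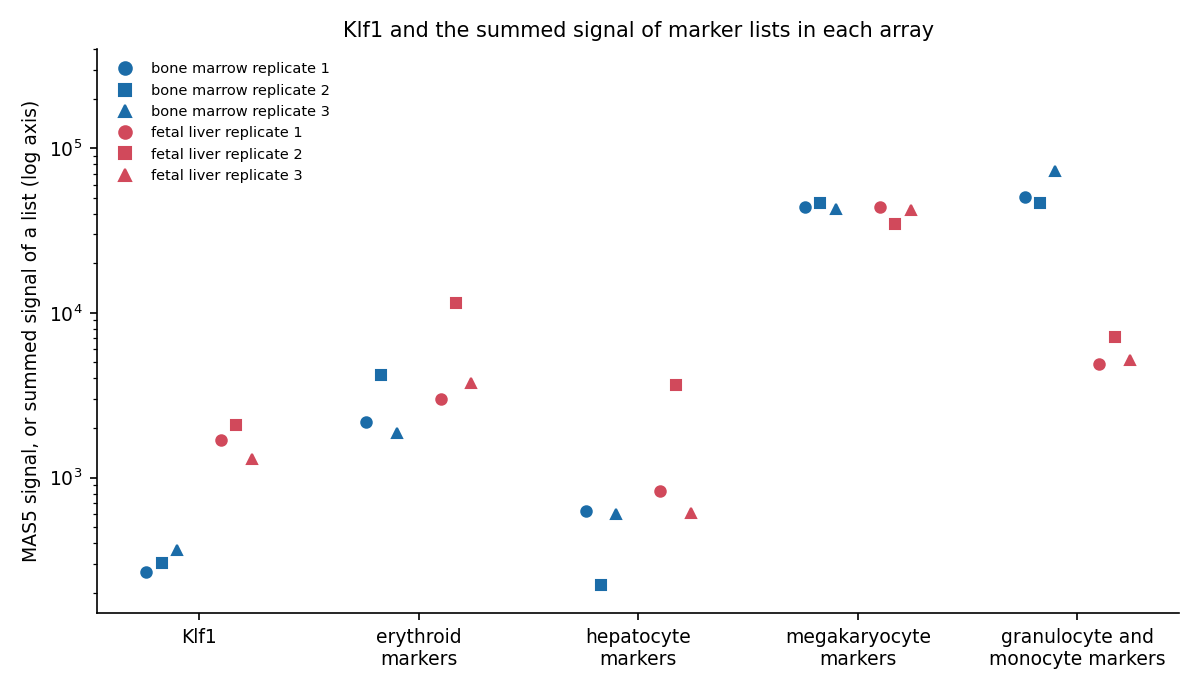
Signal of Klf1 and summed signals of marker lists, on a log axis, in each of the 3 bone marrow (blue) and 3 fetal liver (red) arrays. The erythroid sums of 3 fetal liver arrays span 3004 to 11550 and overlap the marrow sums of 1875 to 4186, the megakaryocyte sums lie within 34800 to 46600 in both tissues, and the granulocyte and monocyte sums are 46300 to 72500 in marrow and 4900 to 7150 in fetal liver.

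The 5 genes whose signal followed that of Klf1 most closely over the 6 arrays were Golm1, Rab23, Wdr77, Klhl13 and Fgd5, with Pearson's r of 0.995 to 0.998 among 11624 genes ranked. This is a description over 6 arrays of 2 tissues, in which any gene with a clean difference between tissues has a high r. Of the 5, 3 passed the threshold and Rab23 (adjusted p = 0.0600) and Wdr77 (adjusted p = 0.0640) did not. Klhl13 rose by 2.71 ± 0.53 (adjusted p = 0.0160). Golm1, a Golgi membrane protein, rose by 1.47 ± 0.25 (adjusted p = 0.00751) and Fgd5 was at least 7.11-fold higher in fetal liver (adjusted p = 0.00139). The bound sets the fetal liver mean against the highest Bacillus control signal of each marrow array, since Fgd5 was not above background in marrow.

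The GATA pair itself showed opposite directions that did not pass the threshold. Gata1 had signals of 798, 1430.3 and 921 in bone marrow and of 1433, 2359 and 2255 in fetal liver. The groups did not overlap, but the lowest fetal liver array and the highest marrow array differed by under 3 signal units. The log2 fold change of Gata1 was 0.95 ± 0.30 (SE; 95% interval 0.29 to 1.61; limma adjusted p = 0.1004). Of the alternatives without a block it passed the threshold under median centring of the arrays, at 1.202 (adjusted p = 0.0400), within 0.0400 to 0.332 over all alternatives.

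Gata2 was measured by 2 probe sets, and in both every marrow array was above every fetal liver array. Probe set 1450333_a_at had signals of 2088, 2501 and 1935 in marrow and of 1232, 1335 and 1175 in fetal liver, a change of -0.79 ± 0.22 (SE; 95% interval -1.28 to -0.31; limma adjusted p = 0.0666). Probe set 1428816_a_at had signals of 6838, 9979 and 8919 in marrow and of 2083, 5797 and 6110 in fetal liver, a change of -1.01 ± 0.36 (95% interval -1.81 to -0.22; adjusted p = 0.140). The second of these spread widely in fetal liver because of replicate 1, and without that array its change was -0.51 (adjusted p = 0.179). The mean of the 2 probe sets, fitted with 1 row per gene, passed the threshold at -0.90 (adjusted p = 0.0431). Probe set 1428816_a_at also passed it, again without a block, with the Gapdh ratio given below as a covariate (-1.40, adjusted p = 0.00757), within 0.00757 to 0.317 over all alternatives.

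Markers of mast cells, basophils and stem cells, which are known to use GATA2, are given beside it. The 7 mast cell and basophil markers named on the array had summed signals of 1680 to 2370 in marrow and 400 to 573 in fetal liver, with 6 and 3 of them above background on every array of the tissue, and Mcpt8 and Fcer1a above it on none of the fetal liver arrays. Ms4a2, a chain of the IgE receptor, fell by 2.87 ± 0.45 (limma adjusted p = 0.00474), and Mcpt8, a basophil protease, was at least 13.3-fold lower in fetal liver (adjusted p = 0.00171). The 6 stem cell markers had sums of 3260 to 3630 in marrow and 372 to 421 in fetal liver. The part of these cells in the values of Gata2 was not tested.

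Non-overlap is common in these data, and 25.5% of the kept probe sets had groups that did not overlap (11.1% with fetal liver above and 14.4% with marrow above). Among the members this held for 2 probe sets with fetal liver above (Gata1 and Klf1) and 3 with marrow above (both of Gata2, and Lmo2), or 5 of 17.

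**Figure D3:**
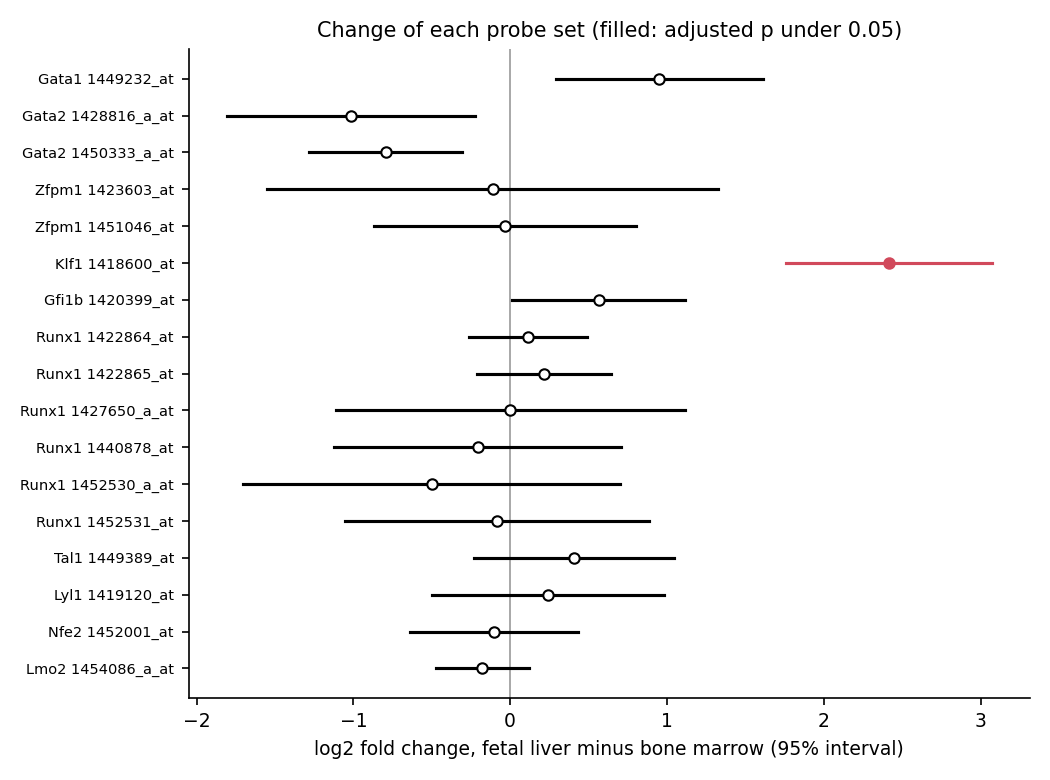
Log2 fold change, fetal liver minus bone marrow, of each of the 17 probe sets with its 95% interval from the limma fit; a filled point marks an adjusted p under 0.05. Klf1 alone is filled at 2.42, the intervals of Gata1, Gfi1b and both Gata2 probe sets leave out 0 before adjustment, and the intervals of Zfpm1 and of several Runx1 probe sets are wide.

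Zfpm1, which encodes the GATA cofactor FOG1, had overlapping groups in both of its probe sets. Probe set 1451046_at had signals of 814, 1235 and 871 in marrow and of 519, 1451 and 1086 in fetal liver, and its change was -0.03 ± 0.38 (95% interval -0.87 to 0.80; limma adjusted p = 0.9754). Probe set 1423603_at had signals of 211, 642 and 706 in marrow and of 147, 807 and 639 in fetal liver, a change of -0.11 ± 0.65 (95% interval -1.55 to 1.33; adjusted p = 0.952). The interval of 1423603_at is wide enough to hold a more than 2-fold difference either way, so no statement on Zfpm1 can be made from it. That of 1451046_at leaves out a 2-fold difference in either direction in the main fit only. Its change took both signs over the alternatives (-0.35 to 0.39). Without fetal liver replicate 2 it was -0.349 ± 0.407 (SE), which does not leave out a 2-fold lower signal in fetal liver. Both probe sets were lowest in replicate 1 of each tissue.

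Gfi1b, the repressor of both lineages, had signals of 1585, 2627 and 2115 in marrow and of 2423, 3255 and 3627 in fetal liver. The highest marrow array was above the lowest fetal liver array. Its change was 0.57 ± 0.25 (SE; 95% interval 0.01 to 1.12; limma adjusted p = 0.237), with adjusted p of 0.0837 to 0.570 over all alternatives. Gfi1, the paralogue used in granulocytic and lymphoid cells, had signals of 1251, 34.6 and 1189 in marrow and of 94.4, 265 and 20.1 in fetal liver, so that 1 marrow array lay among the fetal liver arrays. Its change was -2.18 ± 1.27 (adjusted p = 0.383).

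The members of the TAL1 complex did not pass the threshold. Tal1 had signals of 1458, 2613 and 1209 in marrow and of 2325, 1979 and 2348 in fetal liver, a change of 0.41 ± 0.29 (SE; 95% interval -0.23 to 1.05; limma adjusted p = 0.486). Lyl1 had signals of 965, 1887 and 1267 in marrow and of 1023, 1765 and 2113 in fetal liver, a change of 0.24 ± 0.33 (95% interval -0.50 to 0.98; adjusted p = 0.755). Both genes overlapped between the tissues. Lmo2, the bridging protein of the complex, was the member with the smallest spread between arrays: its signals were 14667, 14848 and 13963 in marrow and 13511, 12455 and 12483 in fetal liver. Every marrow array was above every fetal liver array, with a change of -0.18 ± 0.13 (SE from the fit, which draws the small spread of this gene towards that of others; 95% interval -0.47 to 0.12; adjusted p = 0.517) that turned to 0.07 under median centring. The interval of Lmo2 leaves out a 2-fold difference in either direction.

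Runx1 was covered by 6 probe sets, and its most precise ones bounded the difference between tissues closely. Probe set 1422864_at had signals of 4705, 5633 and 4833 in marrow and of 5701, 4952 and 5765 in fetal liver, a change of 0.12 ± 0.17 (SE; 95% interval -0.26 to 0.49; limma adjusted p = 0.774). Probe set 1422865_at gave 0.22 ± 0.19 (95% interval -0.21 to 0.65; adjusted p = 0.599). The tissues overlapped in all 6 probe sets. The other probe sets ranged from -0.50 (1452530_a_at, with 95% interval -1.70 to 0.70) to 0.00 (1427650_a_at, with 95% interval -1.11 to 1.12). Their adjusted p lay between 0.677 and 0.999. Runx1 has a distal and a proximal promoter, and the annotation used here does not assign the probe sets to the transcripts of either.

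Nfe2, the blood-specific subunit of NF-E2, had signals of 3388, 3129 and 2166 in marrow and of 3235, 2151 and 2664 in fetal liver. The tissues overlapped fully, and the change was -0.10 ± 0.24 (SE; 95% interval -0.64 to 0.43; limma adjusted p = 0.867). Among the megakaryocyte targets described below, some are known to depend on NF-E2, and 4 of these were picked after their values were seen. Tubb1, the platelet beta tubulin, had signals of 245, 19.0 and 91.5 in marrow and of 2941, 2344 and 3029 in fetal liver and rose by 5.11 ± 0.69 (adjusted p = 0.00220). Tbxas1, thromboxane synthase, had signals of 1095, 1354 and 1293 in marrow and of 339, 411 and 379.7 in fetal liver and fell by 1.72 ± 0.27 (adjusted p = 0.00545). Casp12 also fell, by 3.29 ± 0.71 (adjusted p = 0.0247), and exceeded the control signals in 1 fetal liver array of 3, while Rab27b, a GTPase of platelet granules, differed by 0.47 ± 0.17 (adjusted p = 0.139).

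Differences between factors within an array do not depend on a scaling factor common to the array, and they shifted towards Gata1 and Klf1 in fetal liver. Each gene was read by its kept probe set of highest mean signal. The log2 signal of Gata1 minus that of Gata2 was -3.10, -2.80 and -3.27 in the marrow arrays and -0.54, -1.30 and -1.44 in the fetal liver arrays. The groups were far apart, and the mean difference of 1.97 corresponds to a 3.904-fold higher ratio of Gata1 to Gata2 signal in fetal liver. For Klf1 minus Gata2 the shift was 3.43, or 10.8-fold, and for Klf1 minus Gata1 it was 1.46, or 2.76-fold. Gata1 shifted by 0.98 against its cofactor gene Zfpm1, with 1.07 ± 0.38 in fetal liver and 0.09 ± 0.12 in marrow (SD, n = 3), without overlap although Zfpm1 itself varied widely. Klf1 shifted by 2.01 against Tal1, also without overlap. Gata1 against Tal1 (0.54) and Gata1 against Runx1 (0.84) overlapped between tissues. The 7 differences are not independent, because each holds Gata1 or Klf1. The groups of Gata1, Klf1 and Gata2 were already without overlap when each gene was read alone, so these shifts restate those values in part. How often pairs of other genes lack overlap was not tested. In a two-sided exact permutation test the 5 of 7 differences without overlap reached p = 0.1, the smallest value that 3 against 3 arrays allow, and p = 0.14 after Benjamini-Hochberg adjustment over the 7; the other 2 had p = 0.2. No difference changed sign when an array was left out, with another offset or floor, or with the mean of each gene's probe sets, and that of Gata1 minus Gata2 stayed within 1.69 to 2.14.

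**Figure D4:**
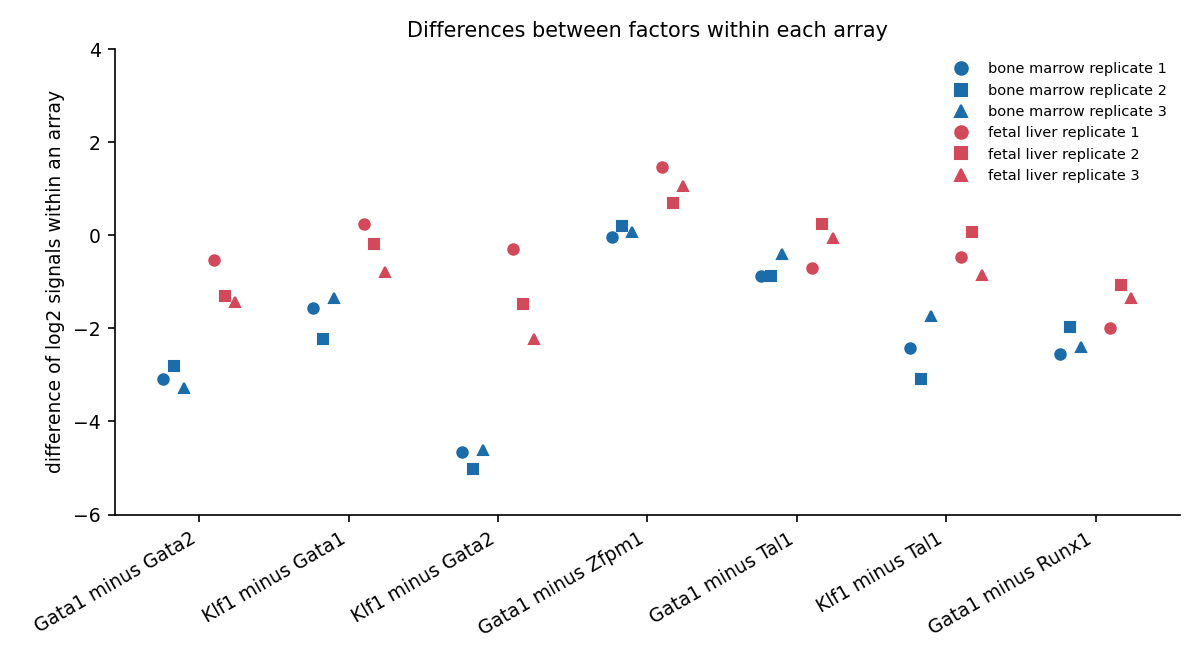
Difference of log2 signals between named pairs of factors within each of the 3 bone marrow (blue) and 3 fetal liver (red) arrays, with a marker shape for each replicate number. Gata1 minus Gata2 lies between -3.27 and -2.80 in marrow and between -1.44 and -0.54 in fetal liver, and the pairs Gata1 with Tal1 and Gata1 with Runx1 overlap.

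Several members also varied together between arrays of the same tissue. Of the 17 probe sets, 7 were lowest in replicate 1 of both tissues: those of Gata1, Gfi1b and Lyl1, both of Zfpm1, 1428816_a_at of Gata2 and 1452530_a_at of Runx1. This is 41.2% of the members against 16.9% of all kept probe sets. The replicate 1 arrays also had the lowest ratio of 5' to 3' signal of Gapdh within each tissue, at 0.0990 in marrow (0.177 and 0.303 in the others) and 0.109 in fetal liver (0.449 and 0.432). The same ratio of Actb was lowest in replicate 1 only in fetal liver, with 1.08, 1.13 and 1.06 in marrow and 0.892, 1.02 and 0.971 in fetal liver. The part of RNA quality in these values was not tested beyond the alternatives that follow. With this ratio as a covariate Gata1 had a change of 0.77 (adjusted p = 0.147), Gfi1b of 0.40 (adjusted p = 0.324) and Klf1 of 2.36 (adjusted p = 0.00384). With replicate 1 of both tissues left out Gata1 had a change of 1.01 (adjusted p = 0.120) and Klf1 of 2.30 (adjusted p = 0.0270). The genes closest to Gata1 over the 6 arrays, Cenpa, Trmt61a, Smox, Steap3 and Cdc34, with r of 0.986 to 0.997, had changes of 0.24 to 1.33, and 0 of the 5 passed the threshold in limma.

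Of 38 partner and cofactor genes (such as Ldb1, Tcf3, Cbfb, Cbfa2t3, Kdm1a and the small Maf genes) 37 were measured, and 0 passed the threshold in limma in either direction, where the background over 11625 genes was 2.26% for a rise, 4.09% for a fall and 6.36% for either. At an unadjusted p under 0.05 there were 2 with a higher signal in fetal liver and 3 in marrow, where the shares of all genes were 10.6% and 12.0% (22.5% in either direction). The 2 were the deacetylase gene Hdac3 (0.95 ± 0.31, adjusted p = 0.110) and Ssbp3, whose product binds LDB1 (0.73 ± 0.25, adjusted p = 0.134), and the 3 were Cbfa2t2, Cbfb and Sp1. The median change of the partners was -0.07. Ldb1, which holds the TAL1 complex together, had signals of 1851, 3195 and 2878 in marrow and of 900, 2983 and 2855 in fetal liver, a change of -0.38 ± 0.42 (limma adjusted p = 0.682). Cbfa2t2, a corepressor, had a change of -0.93 ± 0.34 (adjusted p = 0.149), Cbfb, the partner of RUNX1, had a change of -0.68 ± 0.22 (adjusted p = 0.105), and the corepressor Cbfa2t3 one of -0.38 ± 0.21 (adjusted p = 0.362).

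A list of neighbouring transcription factors held factors of other blood lineages and also of stem cells and megakaryocytes. Changes were negative in 10 of 11 measured cases (13 listed), of which 3 fell and 0 rose past the threshold. The list median was -0.68, against 0.006 over all genes. Over all 11625 genes 4.09% fell and 2.26% rose past it. Erg, an ETS factor of stem cells and megakaryocytes, had signals of 4613, 3953 and 2593 in marrow and of 1656, 914 and 741 in fetal liver and fell by 1.80 ± 0.33 (limma adjusted p = 0.0112). Cebpa, the factor of granulocyte commitment, fell by 2.84 ± 0.41 (adjusted p = 0.00329) and Irf8, of monocytes, by 3.91 ± 0.53 (adjusted p = 0.00214). Spi1, the myeloid ETS factor that antagonises GATA1, had signals of 71.0, 169.7 and 337 in marrow and of 139, 121 and 147 in fetal liver, with a change of -0.24 ± 0.58 (adjusted p = 0.871). Markers of granulocytes and monocytes were higher in the same marrow arrays: 11 of 11 fell in fetal liver, their summed signal was 46300 to 72500 in marrow and 4900 to 7150 in fetal liver, and Ltf was not above background on any fetal liver array. Their part in the values of Cebpa and Irf8 was not tested.

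Erythroid targets of GATA1 and KLF1 had mostly positive changes in fetal liver against marrow. Of 31 measured genes (41 listed) 24 had a positive change, and 8 rose and 1 fell past the threshold. The median change was 1.01 against 0.006 over all 11625 genes, of which 2.26% rose and 4.09% fell past it. Hbb-y, an embryonic beta-like globin, had signals of 17.2, 9.17 and 2.89 in marrow, all at background, and of 83.4, 3064 and 1628 in fetal liver. It was at least 27.4-fold higher in fetal liver (limma adjusted p = 0.0123), a bound that was 82.11, 13.55 and 18.59 without fetal liver replicates 1, 2 and 3. Hbb-bh1 was at least 3.63-fold higher (adjusted p = 0.0359), where probes of one beta-like globin gene may also bind transcripts of its near-identical relatives. Ank1, the ankyrin of the red cell membrane, had signals of 559.7, 134 and 435 in marrow and of 1404, 1836 and 1063 in fetal liver and rose by 2.12 ± 0.49 (adjusted p = 0.0330). Rhag, of the Rh complex, rose by 2.97 ± 0.68 (adjusted p = 0.0329). The other 4, Add2, Cpox, Urod and Tfrc, rose by 1.01 to 1.97, and Tfrc encodes the transferrin receptor. Tfr2, a second transferrin receptor and iron sensor, went the other way, with signals of 820, 1669 and 1165 in marrow and of 513, 489 and 421 in fetal liver and a fall of 1.30 ± 0.32 (adjusted p = 0.0429). The erythropoietin receptor gene Epor had a change of 0.83 ± 0.32 (adjusted p = 0.176) and Slc4a1, band 3, one of 1.30 ± 0.75 (adjusted p = 0.379).

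The number of these calls varied with the arrays and the fit, as did calls over all kept probe sets. Leaving out marrow replicate 1, 2 or 3 gave 9, 4 or 5 genes in place of 8. Leaving out fetal liver replicate 1, 2 or 3 gave 2, 1 or 2. In the same fits the 482 kept probe sets higher in fetal liver became 394, 355 or 455, and 251, 140 or 140. The 8 genes became 1 without the intensity trend and 13 under median centring, where the 482 became 195 and 1291. The call of Tfr2 was lost without each array other than marrow replicate 1.

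Megakaryocyte targets went both ways, as 4 of 22 measured genes (27 listed) rose and 3 fell, with a median change of 0.19. Over all 11625 genes 2.26% rose and 4.09% fell past the threshold. Besides Tubb1, thrombospondin (Thbs1) rose by 4.74 ± 0.29 (limma adjusted p = 3.10e-05), the podoplanin receptor gene Clec1b by 1.32 ± 0.28 (adjusted p = 0.0238) and F2rl2, which encodes a protease-activated receptor, by 1.04 ± 0.22 (adjusted p = 0.0247). P-selectin (Selp) fell by 3.66 ± 0.54 (adjusted p = 0.00342), with Tbxas1 and Casp12 as given above. The 4 became 2 without marrow replicate 1, without fetal liver replicate 3 and without the intensity trend, and 7 under median centring. The granule chemokine gene Pf4 had a change of -0.32 ± 0.14 (adjusted p = 0.232) and the genes of the sort antigens CD41, KIT and CD150 (Itga2b, Kit and Slamf1) had changes of -0.64, -0.55 and 0.29 with adjusted p of 0.133, 0.419 and 0.698. Ptprc, the leukocyte antigen CD45 and no antigen of the sort, fell by 2.07 ± 0.24 (adjusted p = 9.12e-04). The 6 megakaryocyte markers named on the array (Pf4, Itga2b, Gp9, Gp1bb, Vwf and Itgb3) were above background on all 6 arrays.

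Genes that GATA1 is known to lower during maturation had negative changes in 5 of 5 cases, of which 1 fell past the threshold. Over all 11625 genes 4.09% fell past it. Hhex and Myb are also counted among the neighbouring factors above, so the counts of these lists are not separate. Cd34, an antigen of early progenitors, had signals of 635, 622 and 1092 in marrow and of 119.7, 239.7 and 186 in fetal liver and fell by 2.09 ± 0.40 (limma adjusted p = 0.0142), a call lost without marrow replicate 3 and without fetal liver replicate 3. The 6 stem cell markers, of which Cd34 is 1, had summed signals of 3260 to 3630 in marrow and 372 to 421 in fetal liver, with Procr and Flt3 above background on 1 marrow array each and no fetal liver array, and the part of other progenitors in these values was not tested. Hhex, Kit, Myb and Myc had changes of -0.55 to -0.41 and adjusted p of 0.211 to 0.453. Under median centring the kept probe sets as a whole shifted by 0.25 towards fetal liver, so changes of this size depend on the scaling.

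**Figure D5:**
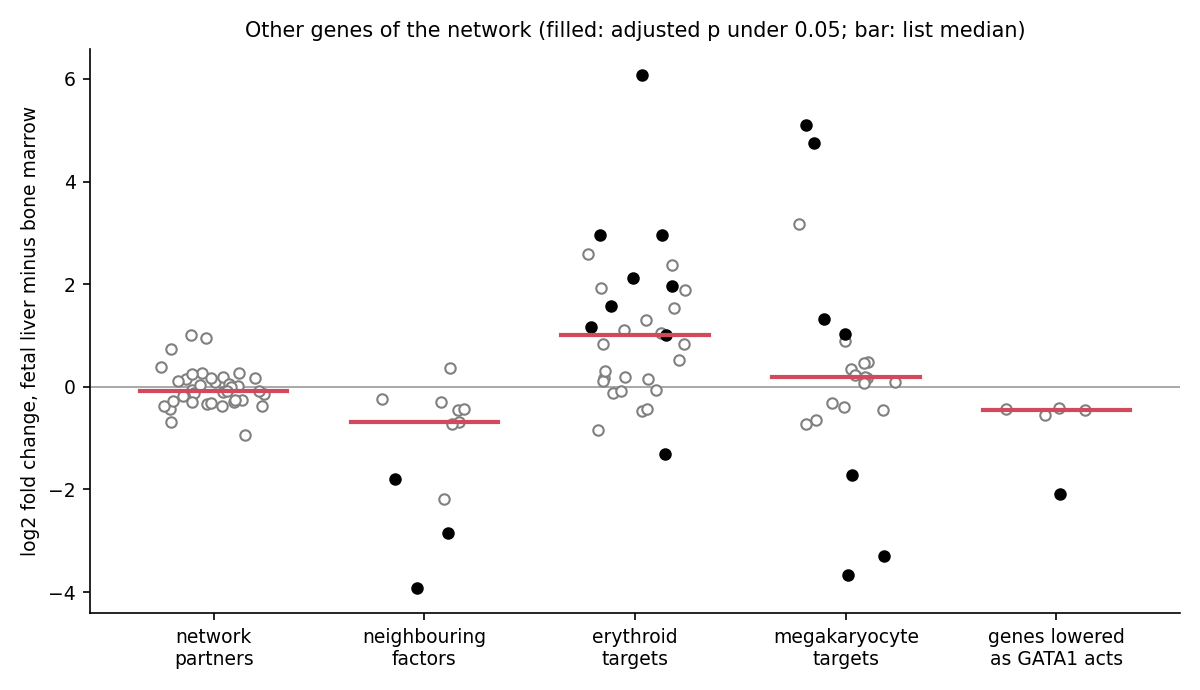
Log2 fold change, fetal liver minus bone marrow, of the measured genes of 5 lists (37 network partners, 11 neighbouring factors, 31 erythroid targets, 22 megakaryocyte targets and 5 genes lowered as GATA1 acts); filled points have an adjusted p under 0.05 and bars are list medians. The partners lie around a median of -0.07, the neighbouring factors around -0.68, the erythroid targets around 1.01, and the megakaryocyte targets spread in both directions around 0.19.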

How the data were processed

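RNA from 6 sorted samples was hybridised to Affymetrix arrays, 1 array per sample. The deposited values are linear signal intensity per probe set, computed by the authors using MAS5 (per the submitters' processing notes). Its version and scaling target were not given in the sources used here. MAS5 summarises each array alone, so dim probe sets are noisy. Signals were taken as log2(signal + 2.87), the offset being the 10th percentile of all signals. Probe sets above the 40th percentile of mean log2 signal were kept, and fetal liver was compared with bone marrow by limma 3.58.1 in R 4.3.3 (moderated test with an intensity trend). P-values were adjusted by Benjamini-Hochberg over all 27022 kept probe sets, at a threshold of 0.05. Gene lists were read from the same fit, by each gene's kept probe set of highest mean signal, in 11625 genes.

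Probe sets were named from the platform annotation: 34945 had 1 symbol, 932 several and 9160 none, and genes were named only from the first kind. The rule for named genes was every probe set of the 10 members; from each list at most 4 genes in each direction past the threshold; Pf4, Itga2b, Kit and Slamf1; and the 5 genes most correlated with Klf1 and with Gata1. Ldb1, Cbfb, Cbfa2t3, Cbfa2t2, Hdac3, Ssbp3, Sp1, Ms4a2, Mcpt8, Ptprc, Gfi1, Spi1, Epor, Slc4a1, Rab27b, Add2, Cpox, Urod, Tfrc, Hhex, Myb and Myc fall outside it and were chosen after their values were seen. The members and lists were chosen with earlier results of these data known. Promoter sequences are from RefSeq on GRCm38.p6.

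Replicate numbers 1 to 3 recur in both tissues. They were not taken to pair the arrays, by the correlation of deviations over all kept probe sets. No 2 arrays held identical values. In all, 21 alternatives were run, of which 2 were chosen after seeing the data (the Gapdh ratio as a covariate, and replicate 1 of both tissues left out).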

Additional observations from a re-analysis of the deposited data

How the results depend on the processing

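Over 21 alternatives the 17 member probe sets gave 343 values: 307 kept their direction and side of the threshold, 5 came to pass it and 31, all of probe sets that were not called, changed sign. With the replicate block the members called went from 1 to 2 higher in fetal liver (Gata1, adjusted p = 0.0424) and from 0 to 1 higher in marrow (Gata2 1428816_a_at, adjusted p = 0.0246). Deviations of same-numbered arrays correlated at 0.123, -0.018 and 0.096 over all kept probe sets, where marrow replicate 2 was closest to fetal liver replicate 1 (0.020), and at 0.620, 0.111 and 0.519 over the 17 member probe sets, where marrow replicate 2 was closest to fetal liver replicate 2. Median centring also gave 2 higher in fetal liver, and the mean of probe sets per gene and the Gapdh covariate each gave 1 higher in marrow. Of all kept probe sets, the 482 higher in fetal liver became 1291 under median centring, 195 without the intensity trend, 193 with replicate 1 of both tissues left out and 140 to 455 with each array left out. The 886 higher in marrow became 526 without the trend, 553 with 1 probe set per gene, 589 with their mean, 434 without replicate 1 of both tissues and 477 to 689 with each array left out.

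The 0 network partners higher in fetal liver became 2 under median centring, 1 with the mean of probe sets and 1 with the Gapdh covariate. The 8 erythroid targets became 13, 1, 5 and 3 under median centring, no trend, the covariate and without replicate 1 of both tissues, and 1 to 9 with each array left out. The 1 lower in fetal liver became 0 under median centring, quantile normalization, no filter, no trend, no _x_at or _s_at probe sets, the covariate and without replicate 1 of both tissues (0 to 1 with each array left out). The 4 megakaryocyte targets higher became 7, 2 and 2 under median centring, no trend and without replicate 1 of both tissues, and 2 to 4 with each array left out. The 1 gene lowered as GATA1 acts became 0 without replicate 1 of both tissues (0 to 1).

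Changes of sign were as follows. Median centring gave Zfpm1 0.139 (1423603_at) and 0.218 (1451046_at), Runx1 0.044 (1440878_at) and 0.168 (1452531_at), Nfe2 0.148 and Lmo2 0.073. Quantile normalization gave Zfpm1 0.031 and 0.023 and Runx1 1452531_at 0.186. Leaving out replicate 1 of both tissues gave 0.093, 0.275 and 0.047 for the same probe sets. The covariate gave Runx1 1427650_a_at -0.279, Lyl1 -0.015 and Nfe2 0.080, an offset of 16 gave 1427650_a_at -0.001, and the mean of probe sets gave Runx1 -0.076. The causes were not tested.

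With each array left out in turn, the probe sets that changed sign ranged from -0.238 to 0.046 for Runx1 1452531_at, -0.299 to 0.047 for Nfe2 1452001_at, -0.664 to 0.646 for Zfpm1 1423603_at, -0.349 to 0.391 for Zfpm1 1451046_at, -0.417 to 0.357 for Runx1 1427650_a_at, -0.651 to 0.244 for Runx1 1440878_at, -1.058 to 0.008 for Runx1 1452530_a_at. Depth in the sense of counts does not apply to arrays, and signal over background was not limiting for any member.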
